A study of Homo sapiens with 8 samples.

Results

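CD36 and 8 further genes of fatty acid uptake were followed in HepG2, a cultured human line from a liver tumour, sequenced in cells labelled mock and in cells labelled as overexpressing EDN1, the gene of the endothelin-1 precursor. The 9 genes were taken by symbol from the deposited count table, which gave 24462 genes once rows of 1 symbol were summed: the scavenger receptor gene CD36, the fatty acid binding protein gene FABP1, the transport protein genes SLC27A2, SLC27A4 and SLC27A5, and the acyl-CoA ligase genes ACSL1, ACSL3, ACSL4 and ACSL5. All 9 were among the 12577 genes that passed the filter on low counts. CD36 was chosen by its levels in these same libraries, whose groups do not overlap, so its values are given as a description and without a test. The other 8 genes were listed by function.

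Each group held 4 libraries, grown in the same serum-containing medium with no further treatment and per the labels prepared by the QuantSeq protocol of Lexogen, which is known for reading tags from the 3′ side of polyadenylated RNA. That reading rests on the kit's name, since its catalogue number could not be matched to a kit version here. The labels do not name the vector, and they do not say whether the overexpressing cells are 1 clone or whether libraries come from different culture dishes. The p-values below therefore reflect the variation among these libraries, which may be technical. Library totals were 8409173 to 14932385 counts for mock and 8571252 to 11686180 for the overexpressing cells. EDN1 had 9 to 29 counts in the mock libraries and 2284 to 4764 in the EDN1 overexpression libraries, so every library matched its label. Clustering of the counts put mock 4, EDN1 3 and EDN1 4, named the second library set here, on a branch away from the remaining 5, named the first, and the labels give no batch that matches it. Fold changes are also given inside each set, where the second has a lone mock library assumed to vary like the EDN1 libraries. All 9 hepatocyte markers listed were counted in every library. Their summed level in CPM (the count scaled by library size in the usual way) was 5651 to 7925 over the mock libraries. Over the EDN1 libraries it was 5636 to 7761 CPM. This sum was mostly APOB, at a mean of 4503 CPM, so it says little of the other markers. The log2 fold changes were positive in 4 and negative in 5 of the 9, from -0.79 (SE 0.35) for AFP to 0.14 for TTR.

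Long chain fatty acids enter a hepatocyte partly by diffusion and partly with the help of membrane proteins. CD36 is a receptor at the cell surface that binds fatty acids and oxidised lipoproteins, and it is low in normal hepatocytes and raised in fatty liver. Inside the cell FABP1 carries fatty acids through the cytosol, while the proteins of the SLC27A family and the ACSL ligases attach coenzyme A, which keeps the fatty acid in the cell and readies it for storage or oxidation.

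CD36 was low in all libraries and higher in every library of the EDN1 overexpression group. Its counts in mock 1 to 4 were 57, 41, 43 and 58, and in EDN1 1 to 4 they were 117, 60, 122 and 73. Scaled by library size with the TMM adjustment named below, these were 4.45, 5.06, 4.98 and 4.01 CPM in mock. In EDN1 overexpression they were 9.52, 6.81, 10.7 and 8.43 CPM. Every EDN1 overexpression library lay above every mock library, with EDN1 3 the highest of the 8 and mock 4 the lowest. The gap that chose CD36 lay between 5.06 CPM in mock 2 and 6.81 CPM in EDN1 2. The mock mean was 4.63 ± 0.495 CPM and the EDN1 overexpression mean 8.86 ± 1.66 CPM (SD, n = 4 each). The fitted fold change, which need not equal the ratio of these means, was 1.93-fold, or 0.95 on the log2 scale (SE 0.21). This SE, and those given below for CD36, do not allow for its choice by these values.

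With so few counts the counting error of a single library is wide. The 95% Poisson interval of mock 2 ran from 3.63 to 6.87 CPM and that of EDN1 2 from 5.19 to 8.76 CPM, so these libraries are not separated by counting alone. The interval of EDN1 1 ran from 7.87 to 11.4 CPM and that of EDN1 3 from 8.89 to 12.8 CPM. These intervals cover counting error only. Since CD36 was chosen by these same values, a gap between its intervals is a description and no test. Over the table, the groups did not overlap in either direction for 2.04% of the tested genes, and 1.38% had EDN1 overexpression higher. A log2 fold change at or above that of CD36 was seen in 73 tested genes, of which 33 had groups that do not overlap.

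The size of the CD36 difference varied with the libraries used, while its sign was fixed by the choice of the gene. Its log2 fold change was 0.77 (SE 0.27) inside the first set, where 3 mock libraries meet EDN1 1 and EDN1 2, and 1.24 (SE 0.57) within the second. Leaving out each library in turn gave values from 0.84 without EDN1 3 to 1.05 without EDN1 2. The order of the 4 libraries differed between CD36 and EDN1. EDN1 reached 228, 259, 418 and 549 CPM in EDN1 1 to 4, and the library with the most EDN1, EDN1 4, had the third highest CD36.

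**Figure D1:**
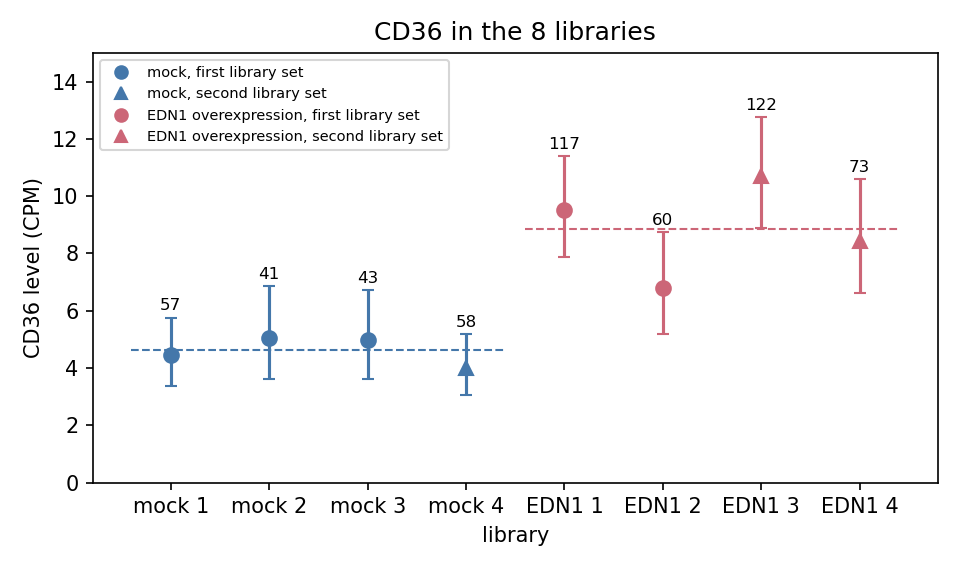
CD36 level in CPM (vertical axis) in each of the 8 libraries (horizontal axis), with 95% Poisson intervals as bars, the raw count above each bar and the group mean as a dashed line. The mock libraries lie between 4.01 and 5.06 CPM and the EDN1 overexpression libraries between 6.81 and 10.7 CPM, and the intervals of mock 2 and EDN1 2 overlap.

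CD36 is also a gene of macrophages, endothelial cells, adipocytes and platelets, and markers of these cells were followed, of which some were at or near 0 counts and others were not. PTPRC, CSF1R and CD163 had at most 1 count in any library and MARCO had 0. CD68, a lysosomal gene of macrophages, had 60 to 164 counts, with 6.95 to 11.3 CPM in the mock group and 7.97 to 18.7 CPM in the EDN1 group. Its log2 fold change was 0.58 (SE 0.27), and its part in the CD36 values was not tested. CD14 had 4 to 20 counts, PECAM1 3 to 9 and ITGA2B 8 to 34. KDR and CLDN5 had 0 counts, and CDH5 and VWF at most 1. FABP4, PPBP and GP9 had 0 counts, and ADIPOQ and PF4 at most 1. The summed level of the 7 endothelial markers was 0.357 to 0.642 CPM in the mock group and 0.350 to 0.876 CPM in the EDN1 group. Of the 9 macrophage markers, 3 passed the filter, and the summed level of 414 to 762 CPM in the mock group and 379 to 771 CPM in the EDN1 group was mostly LYZ. The 7 adipocyte markers summed to 12.2 to 24.7 CPM and 13.9 to 27.7 CPM in the same order, mostly PLIN4 and CIDEC. The 6 platelet markers summed to 1.04 to 3.81 CPM and 0.770 to 2.96 CPM, and the 7 fibroblast markers to 34.4 to 192 CPM and 38.9 to 269.9 CPM, mostly ACTA2. The summed ranges of all 5 lists overlapped between the groups. The samples are of a cultured line, so the marker values are given as transcript levels and do not measure numbers of other cells.

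CD36 is transcribed from several start sites, and the table of RefSeq promoters (GRCh38.p14) lists 6 for it on chromosome 7. The counts do not say which start was used, and they were made on hg19, another build. The 250 bases before each CD36 start held 31.2% to 43.2% G or C and 1 or 2 CG pairs, against medians of 58.0% and 11 over all 35116 windows of that length. The window before the first listed start is shown because CD36 is the gene the results turn on (chr7:80601957-80602206, plus strand, 5′ to 3′, capitals mark the letters TATAAA on the opposite strand).
CD36: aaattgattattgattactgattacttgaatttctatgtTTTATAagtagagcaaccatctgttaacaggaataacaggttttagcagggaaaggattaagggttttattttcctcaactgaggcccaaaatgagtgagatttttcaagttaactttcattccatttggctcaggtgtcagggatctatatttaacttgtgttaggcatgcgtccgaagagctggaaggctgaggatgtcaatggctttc
The letters TATAAA stood on either strand in 2 of the 6 CD36 windows, 211 and 216 bases before the start, and in 10.7% of all windows. AGGTCA, the half-site letters of nuclear receptors such as the fatty acid sensors of the PPAR family, was in 0 of the 6 CD36 windows and in 12.1% of all windows, counting both strands. Some of the 6 CD36 windows overlap one another, and a count of 0 among them is near the background.

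The other 8 genes gave no call. Of these, 0 passed edgeR's quasi-likelihood test over all genes (adjusted p at least 0.9999), where 0.00795% of the tested genes, EDN1 alone, were called. At an unadjusted p under 0.05 by edgeR the count was also 0, against 2.85% of all tested genes. DESeq2 and limma voom called 0 of the 8, against 0.0239% and 0.00795% of all tested genes, so a count of 0 is near the background. In all 8 the mock and EDN1 overexpression levels overlapped. That is also near the background, since the groups did not overlap in only 2.04% of all tested genes. Their log2 fold changes were positive in 6 and negative in 2, with a median of 0.05, against a median of 0.00 over all tested genes, of which 50.3% were positive. In 7 of the 8 the log2 fold change was within 0.2 of 0, as in 62.9% of all tested genes.

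**Figure D2:**
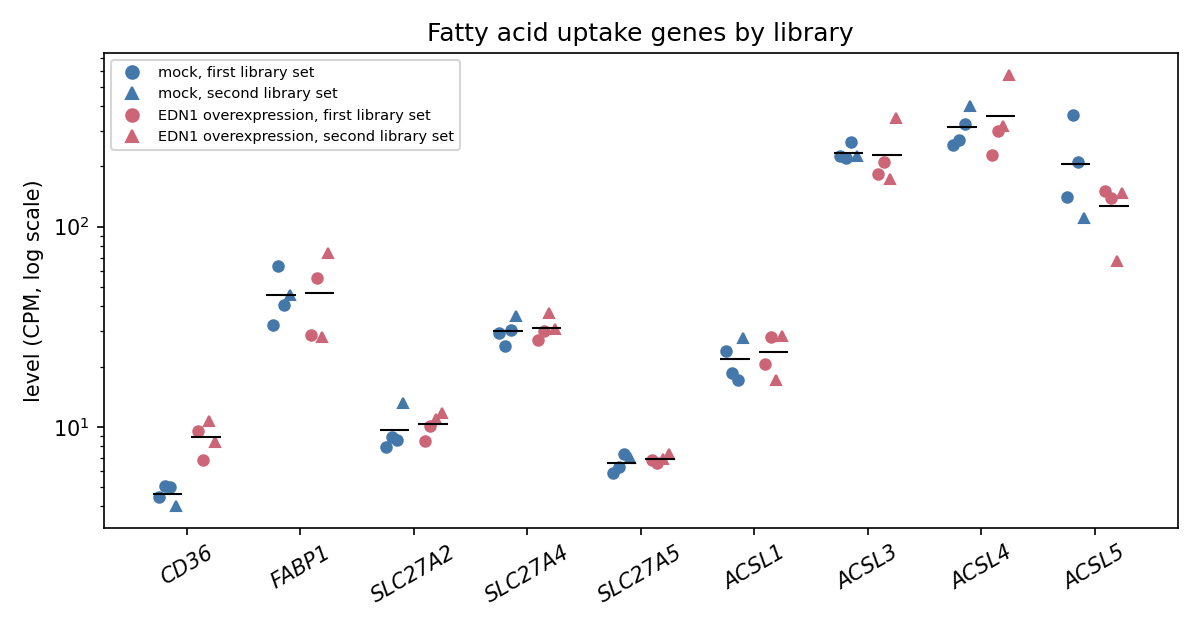
Level in CPM (vertical axis, log scale) of the 9 genes (horizontal axis) in each library, with mock in blue, EDN1 overexpression in red, the first library set as circles, the second as triangles and group means as black lines. The CD36 groups, by which it was chosen, stand apart, and the groups of the other 8 genes overlap, as in most tested genes.

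FABP1, the abundant fatty acid carrier of the hepatocyte cytosol, had 32.2, 63.5, 40.8 and 45.8 CPM in mock 1 to 4 and 28.7, 55.7, 28.2 and 74.1 CPM in EDN1 1 to 4. The EDN1 overexpression libraries spread wider than mock, holding both the lowest (EDN1 3) and the highest (EDN1 4) of the 8. The means were 45.6 ± 13.2 and 46.7 ± 22.4 CPM (SD, n = 4 each), and the log2 fold change was 0.03 (SE 0.33, 95% interval -0.69 to 0.76). That value was -0.28 without EDN1 4 and 0.23 without mock 2, and it was -0.11 inside the first library set and 0.15 inside the second. On the linear scale the interval reached from 0.618-fold to 1.69-fold. The 250 bases before its RefSeq start are shown because FABP1 is a textbook target of PPARα (GRCh38.p14, chr2:88128063-88128312, minus strand, 5′ to 3′, capitals mark AGGTCA as read on the opposite strand and then TATAAA).
FABP1: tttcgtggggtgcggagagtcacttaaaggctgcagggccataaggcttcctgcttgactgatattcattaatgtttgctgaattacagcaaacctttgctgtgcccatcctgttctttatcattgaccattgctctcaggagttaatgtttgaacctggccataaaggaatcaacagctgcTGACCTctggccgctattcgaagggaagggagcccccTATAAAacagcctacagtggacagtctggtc
AGGTCA stood 68 bases and TATAAA 31 bases before the start. Of the 19 windows of the 9 genes, AGGTCA was found in 1 of FABP1 and 1 of ACSL5, and the spaced pair AGGTCANAGGTCA was in 0 of them and in 6 of all 35116 windows. An exact pair is so rare that its absence here says nothing about these genes.

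Of the 8 genes, the transport protein genes SLC27A4 and SLC27A5 had the narrowest intervals of the fold change. SLC27A4, whose product is a broadly expressed acyl-CoA synthetase of the endoplasmic reticulum, had 29.6, 25.3, 30.5 and 35.7 CPM in mock 1 to 4 and 27.0, 29.9, 36.8 and 30.9 CPM in EDN1 1 to 4. Its log2 fold change was 0.04 (SE 0.16, 95% interval -0.32 to 0.40), which corresponds to an interval of 0.803-fold to 1.32-fold. SLC27A5, the bile acid and very long chain acyl-CoA synthetase gene of the liver, had the narrowest range over the 8 libraries of the 9 genes, 1.25-fold from lowest to highest. It had 5.85, 6.30, 7.30 and 6.98 CPM in mock 1 to 4 and 6.83, 6.58, 6.93 and 7.28 CPM in EDN1 1 to 4. With 51 to 101 counts per library, the 95% Poisson interval of mock 1 alone ran from 4.60 to 7.34 CPM. That is wider than the range of the 8 libraries, so the narrow range does not show SLC27A5 to be the steadiest gene. Its log2 fold change was 0.06 (SE 0.18, 95% interval -0.34 to 0.46).

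SLC27A2, the gene of the main very long chain fatty acid transport protein of liver and kidney, had 7.88, 8.89, 8.58 and 13.1 CPM in mock 1 to 4 and 8.54, 10.1, 11.0 and 11.7 CPM in EDN1 1 to 4. Mock 4 was the highest of the 8 libraries. The log2 fold change was 0.09 (SE 0.21, 95% interval -0.38 to 0.57), with 0.14 inside the first library set, -0.23 inside the second and 0.29 without mock 4. For SLC27A2 and SLC27A4 the libraries separated by set rather than by group. SLC27A2 lay between 7.88 and 10.1 CPM in the first set and between 11.0 and 13.1 CPM in the second. SLC27A4 lay between 25.3 and 30.5 CPM and between 30.9 and 36.8 CPM in the same order. The libraries at these gaps are not separated by counting alone. For SLC27A2 the 95% Poisson intervals were 8.1 to 12.4 CPM in EDN1 2 and 9.1 to 13.1 CPM in EDN1 3. For SLC27A4 they were 26.9 to 34.4 CPM in mock 3 and 27.4 to 34.9 CPM in EDN1 4. The second set lay wholly above the first in 2 of the 9 genes and in 9.83% of all tested genes, and wholly below it in 0 of the 9 and 13.4% of all. Since the sets were formed from these counts, this is a description.

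Among the acyl-CoA ligases, ACSL5 had the largest fold change and the widest spread. ACSL5, a ligase gene of mitochondria and endoplasmic reticulum linked to triglyceride synthesis, had 139.9, 362, 210 and 110 CPM in mock 1 to 4. In EDN1 1 to 4 it had 150, 139, 67.4 and 148 CPM. Mock 2 stood far above the other libraries, EDN1 3 far below, and the rest lay between 110 and 210 CPM in both groups. The means were 206 ± 112 and 126 ± 39.5 CPM (SD, n = 4 each), with ACSL5 at -0.70 on the log2 scale (SE 0.37, 95% interval -1.52 to 0.11) and an adjusted p of 0.9999 by edgeR. It was -0.28 without mock 2 and -0.49 without EDN1 3, and -0.71 (SE 0.35) inside the first library set against -0.04 (SE 0.42) within the second. ACSL5 shares exon sequence with ZDHHC6 on the opposite strand in another annotation (GENCODE 29), and whether counting used strand is not given in the sources. Overlapping exons of other genes on the opposite strand are also annotated there for ACSL3, SLC27A2 and SLC27A5, and ACSL4 overlaps KCNE5 on its own strand, a gene with at most 11 counts here. ZDHHC6 was at 21.8 ± 4.95 CPM in the mock group and 24.7 ± 4.85 CPM in the EDN1 group (SD, n = 4 each). ZNF446, which overlaps SLC27A5 on the opposite strand, was at 6.25 ± 1.95 and 5.39 ± 2.49 CPM (SD, n = 4 each), close to the level of SLC27A5 itself. The length and place of the overlap were not measured. Whether ZNF446 reads were counted for SLC27A5 was not tested, and the SLC27A5 values carry that uncertainty.

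ACSL4, the ligase gene that prefers arachidonic acid and so feeds phospholipids prone to peroxidation, had 257, 271, 324 and 402 CPM in mock 1 to 4 and 229, 302, 319 and 575 CPM in EDN1 1 to 4. EDN1 4 was the highest library and EDN1 1 the lowest. Its log2 fold change of 0.19 (SE 0.27, 95% interval -0.42 to 0.79) became -0.15 without EDN1 4. Within the first and second sets it was -0.10 and 0.15. The window before the ACSL4 start is shown as a contrast with CD36, with 77.2% G or C and 42 CG pairs (GRCh38.p14, chrX:109733258-109733507, minus strand, 5′ to 3′, capitals mark GGGCGG on either strand, the letters bound by SP1).
ACSL4: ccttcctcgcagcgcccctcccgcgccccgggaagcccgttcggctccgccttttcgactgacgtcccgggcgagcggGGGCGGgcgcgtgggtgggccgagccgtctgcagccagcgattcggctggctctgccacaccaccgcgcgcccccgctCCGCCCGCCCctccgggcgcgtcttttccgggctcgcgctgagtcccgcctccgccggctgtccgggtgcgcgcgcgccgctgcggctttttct
GGGCGG occurred 3 times in this window and at least once in 42.6% of all windows. It was also found before SLC27A2, SLC27A4, ACSL1 and ACSL3, and in 0 of the CD36, FABP1, SLC27A5 and ACSL5 windows.

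ACSL3, a ligase gene of the endoplasmic reticulum and of growing lipid droplets, had 227, 220.0, 264 and 224 CPM in mock 1 to 4 and 183, 210, 172 and 349 CPM in EDN1 1 to 4. EDN1 1, EDN1 2 and EDN1 3 lay below every mock library and EDN1 4 above all of them, so the groups overlapped through EDN1 4 alone. The log2 fold change was -0.03 (SE 0.22, 95% interval -0.52 to 0.46) over all libraries and -0.31 without EDN1 4, with -0.27 (SE 0.17) in the first set and 0.21 (SE 0.45) in the second. ACSL1, the main ligase gene of liver and fat and another PPAR target, had 23.9, 18.5, 17.2 and 27.6 CPM in mock 1 to 4 and 20.5, 28.2, 17.1 and 28.4 CPM in EDN1 1 to 4. Both groups spanned nearly the same range. Its log2 fold change was 0.10 (SE 0.22, 95% interval -0.39 to 0.60), made up of 0.29 in the first set and -0.29 in the second.

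**Figure D3:**
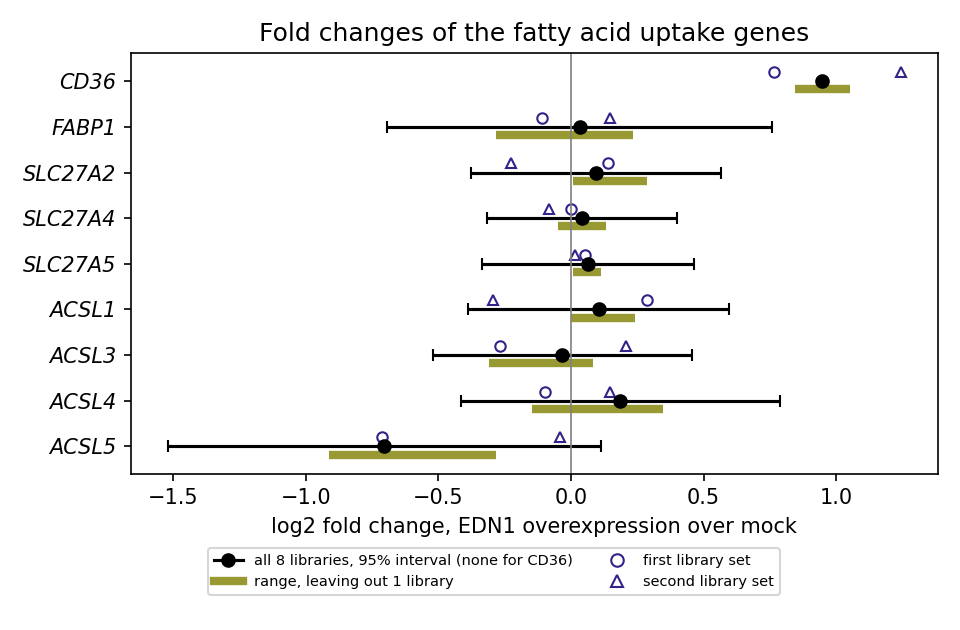
Log2 fold change of EDN1 overexpression over mock (horizontal axis) for the 9 genes, with 95% intervals as black bars, the range of values when each library is left out as a thick bar and the values within each library set as open symbols. CD36, chosen by these values, is drawn at 0.95 with no interval, and the intervals of the other 8 genes, for example -1.52 to 0.11 for ACSL5, hold 0.

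In 4 of the 9 genes EDN1 1 and EDN1 3 lay on one side of EDN1 2 and EDN1 4. CD36 was higher in EDN1 1 and EDN1 3, at a mean of 10.1 CPM, than in EDN1 2 and EDN1 4, at 7.62 CPM. FABP1 was lower in both EDN1 1 and EDN1 3 than in both EDN1 2 and EDN1 4, with means of 28.4 and 64.9 CPM. ACSL1 and ACSL3 were also lower in EDN1 1 and EDN1 3, with means of 18.8 against 28.3 CPM and of 178 against 279 CPM. SLC27A2, SLC27A4, SLC27A5, ACSL4 and ACSL5 were mixed. This split was chosen after the values were seen, and it is common in the table. Over all tested genes 18.8% had EDN1 1 and EDN1 3 above both others and 18.9% had them below.

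Per kilobase of gene length, and over all 8 libraries, FABP1 had the highest level of the 9 genes and CD36 the lowest. FABP1 averaged 81.9 CPM per kb, followed by ACSL4 at 66.4, ACSL3 at 53.0 and ACSL5 at 44.3 CPM per kb. The ranges of neighbours among these 4 overlapped, and each was above the next in 7 of 8 libraries. SLC27A4, at 10.0 CPM per kb, lay below ACSL5 and above ACSL1 in every library. ACSL1 at 4.78 and SLC27A2 at 4.17 CPM per kb had overlapping ranges. SLC27A5 at 2.86 and CD36 at 1.16 CPM per kb each lay below the gene before it in every library. Tags read near the transcript end do not grow with length, so division by length lowers long genes such as CD36 (5836 bases) against FABP1 (563 bases). Undivided, the mean levels gave another order, with ACSL4 at 335, ACSL3 at 231 and ACSL5 at 166 CPM above FABP1 at 46.1 CPM. In the same undivided CPM, CD36 at 6.74 and SLC27A5 at 6.76 were level.

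The make-up of the ACSL counts does not depend on library scaling. ACSL4 gave 40.7% ± 8.85 of all ACSL counts in mock and 47.8% ± 7.35 in EDN1 overexpression, ACSL3 30.5% ± 4.19 and 31.0% ± 0.810, and ACSL5 25.8% ± 11.5 and 17.8% ± 6.49 (SD, n = 4 each). The smallest p among the 11 shares compared within the ACSL and SLC27A families was 0.257, for ACSL5 (exact two-sided permutation test, smallest possible 0.0286, adjusted over the 11 shares 1). Without mock 2, the difference in share went from -7.99 to -2.75 percentage points for ACSL5 and from 7.07 to 3.84 for ACSL4. Without EDN1 3 or mock 4 the ACSL4 difference was 4.55 or 11.0 percentage points. ACSL5 and ACSL4 took separate shares in the library sets. The ACSL5 share was 20.4% to 41.5% in the first set and 11.7% to 14.4% in the second. The ACSL4 share was 31.1% to 44.4% and 52.2% to 55.4% in the same order. In CPM the sets overlapped for both genes, for ACSL4 with 229 to 324 in the first and 319 to 575 in the second. The sets were formed from these counts and the shares are parts of the same total, so this is a description. Among the SLC27A counts, SLC27A4 gave 52.8% ± 8.73 in mock and 50.6% ± 6.27 in EDN1 overexpression, SLC27A2 16.5% ± 1.79 and 16.7% ± 0.894, and SLC27A5 11.5% ± 1.70 and 11.2% ± 1.14 (SD, n = 4 each).

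**Figure D4:**
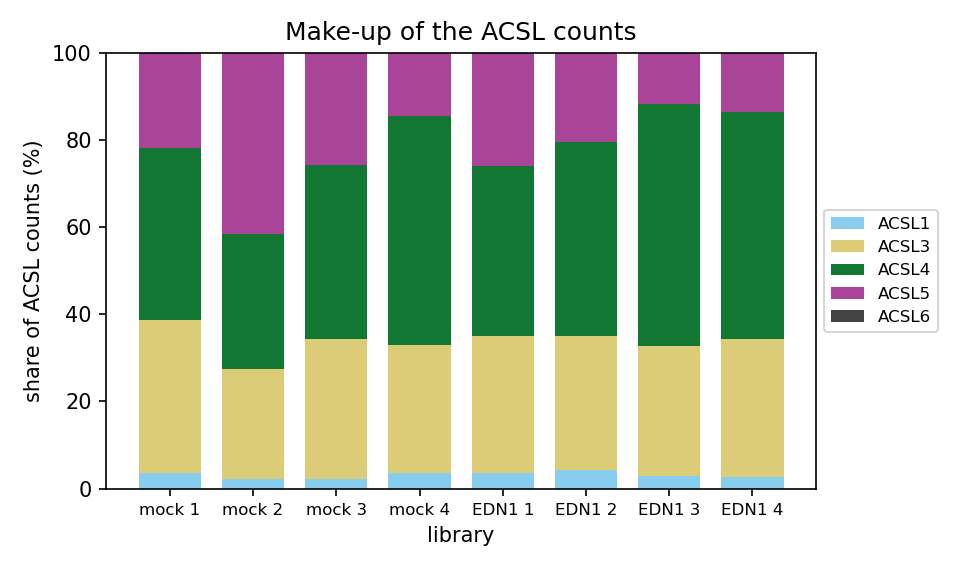
Share of each ACSL gene in the summed ACSL counts (vertical axis, percent) in each library (horizontal axis). The ACSL5 part is largest in mock 2, at 41.5%, and smallest in EDN1 3, at 11.7%, and the ACSL4 part exceeds 52% in mock 4, EDN1 3 and EDN1 4.

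Genes around these 9 were described from lists written with earlier results known. Of the 93 tested genes on any list, markers included, 0 passed edgeR's quasi-likelihood test, DESeq2 or limma voom, and 0 had groups that do not overlap. Over all tested genes the called shares were 0.00795%, 0.0239% and 0.00795% in that order. Groups did not overlap in 2.04% of them, so these counts of 0 are near the background. At an unadjusted p under 0.05 by edgeR there were 4, namely DBI, ACOT11, PEX11A and AFP, where the share over all tested genes was 2.85%. AFP was lower in EDN1 overexpression and the others higher. Of 21 other uptake genes 6 were tested, 4 of them positive and 2 negative, and their median log2 fold change was 0.20. Among its most counted members GOT2, a mitochondrial aminotransferase also described as a fatty acid binding protein of the plasma membrane, was at -0.32 (SE 0.29) and FABP5 at -0.05 (SE 0.29). The triglyceride lipase gene LIPC was at 0.24 (SE 0.29) and SLC27A1 at 0.28 (SE 0.59). FABP4, FABP6 and FABP7 had 0 counts in every library, and LPL at most 1. In the list of acyl-CoA binding proteins, thioesterases and related ligases, 14 of 19 tested members were positive and 5 negative, with a median of 0.04. The positive values went down to 3.35e-05, so the sign says little for some members, and 50.3% of all tested genes were positive. DBI, the acyl-CoA binding protein that takes up the product of the ACSL ligases, was at 0.67 (SE 0.27), at 267 ± 43.8 CPM in the mock group and 424 ± 175 CPM in the EDN1 group (SD, n = 4 each). ACSS1 was at 0.30 (SE 0.15), ACBD3 at 0.36 (SE 0.18) and ACOT2 at 0.41 (SE 0.28).

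Transcription factors that act on CD36 and its relatives were negative in 12 and positive in 6 of 18, the median log2 value being -0.13. CEBPB was at -0.22 (SE 0.30), CEBPA at 0.24 (SE 0.25), NFE2L2 at -0.40 (SE 0.21) and HNF4A at 0.09 (SE 0.14). PPARG, which drives CD36 in macrophages and fat, averaged 3.04 CPM over the 8 libraries with a log2 fold change of -0.16 (SE 0.30), and PPARA, its counterpart in liver, 29.4 CPM with 0.22 (SE 0.20). Other PPAR targets were positive in 7 and negative in 9 of 16 tested members, with a median of -0.05. The lipid droplet coat gene PLIN2 was at -0.21 (SE 0.17), TXNIP at -0.43 (SE 0.48) and HADHA at -0.22 (SE 0.15). Scavenger and lipoprotein receptors related to CD36 in function were positive in 2 and negative in 5 of 7, with a median of -0.08 and values of 0.03 (SE 0.41) for LRP1, -0.16 (SE 0.34) for SCARB1 and -0.16 (SE 0.28) for SCARB2. Enzymes and membrane partners of the CD36 protein were positive in 6 and negative in 5 of 11, with a median of 0.04, among them ITGB1 at -0.11 (SE 0.27), CD9 at 0.27 (SE 0.34), the depalmitoylase gene LYPLA1 at -0.04 (SE 0.25) and the palmitoyltransferase gene ZDHHC5 at 0.13 (SE 0.14).

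The genes whose pattern over the 8 libraries was most like that of CD36 were found by the root mean square difference of centred log2 CPM. Over 12491 genes the median difference was 0.57. The smallest were 0.17 for ADAMTS4, an aggrecan-cleaving protease gene, 0.19 for the kinase gene ZAK, 0.20 for PIDD1, a p53-induced death domain gene, 0.21 for DHCR7, the last enzyme of cholesterol synthesis, and 0.21 for LOC730102. ADAMTS4 had 4.29, 4.08, 3.71 and 3.66 CPM in mock 1 to 4 and 8.54, 5.33, 9.47 and 5.54 CPM in EDN1 1 to 4. As for CD36, EDN1 3 was the highest library, EDN1 2 the lowest of its group and mock 4 the lowest of all. The groups of all 5 genes do not overlap, which follows from the likeness to CD36 and is a description only.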

How the data were processed

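RNA of HepG2 cells was sequenced as 8 libraries. The authors deposited raw counts per gene for each, with a gene length. The submitters' processing notes name Bowtie2, edgeR and hg19. How reads were counted and filtered, and whether by strand, was not given in the sources used here. Groups and replicate numbers came from the sample titles. Rows of 1 symbol were summed (288 symbols, leaving 24462 genes from 25737 rows). Each of the 9 symbols stood on 1 row.

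All genes were fitted together with edgeR 4.0.16 in R 4.3.3 (filterByExpr with a minimum count of 10, TMM scaling, quasi-likelihood test on the group, Benjamini-Hochberg adjustment over all genes, threshold 0.05). CPM were scaled by TMM for single genes and by library totals for summed markers. Standard errors were taken from the F statistic (fold change over its square root). Log2 CPM use a prior count of 2. The fit was tested on simulated data. No 2 libraries agreed within sampling noise (chi-square per degree of freedom at least 6.49). Library sets came from clustering the 1000 most variable genes.

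The 9 genes, the lists and the library sets were chosen with earlier results of these data known. Named genes were the 9 members, EDN1, the 4 most counted members of each list and the 5 genes most like CD36; PPARA, PPARG, the markers, ZDHHC6, ZNF446, KCNE5, list genes with an unadjusted p under 0.05 and list members at 0 or 1 counts were named in addition. Promoter windows were matched by symbol for 9 of 9 genes in RefSeq (GRCh38.p14), and motifs were sought on both strands in the 250 bases before the start. Alternatives were other scaling, no filter, DESeq2 1.42.0, limma voom 3.58.1, the replicate block, a term for library set, either set by itself, and leaving out each library. Some list members that the rule names are not reported here.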

Additional observations from a re-analysis of the deposited data

Results flagged for a closer look

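In 2 of 20 groups of 4 libraries checked among the 9 genes and EDN1, 1 library stood far from the others by Dixon's ratio of gap to range, which chance gives in about 1 group of 20. ACSL3 in mock 3, at 264 CPM, lay above the other mock libraries at 220.0 to 227 CPM (ratio 0.848). ACSL5 in EDN1 3, at 67.4 CPM, lay below the other EDN1 overexpression libraries at 139 to 150 CPM (ratio 0.862).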

How the results depend on the processing

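CD36 ranged from 0.77 to 1.24 on the log2 scale over the 16 alternatives run, with a sign that its choice had fixed and that is no sign of stability. The value of 1.24 came from the second library set alone, where 1 mock library meets 2 EDN1 libraries. The number of genes called was 1 under every alternative except DESeq2, which called 3, and none of the other 8 genes was called under any of them (lowest adjusted p 0.87).

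Log2 fold changes near 0 changed sign. FABP1 was -0.059 with limma voom, -0.046 with the replicate block, -0.015 with the library set as a term and -0.11 in the first set alone, and leaving out 1 library gave -0.28 to 0.23. SLC27A4 was -0.027 with the set as a term, -0.0016 in the first set and -0.084 in the second, and -0.049 to 0.13 with 1 library left out. ACSL4 was -0.0077 with the set as a term and -0.10 in the first set, and -0.15 to 0.35 with 1 library left out. In the second set alone SLC27A2 was -0.23, ACSL1 -0.29 and ACSL3 0.21, and ACSL3 ran from -0.31 to 0.083 with 1 library left out. SLC27A5 and ACSL5 kept their sign throughout. The cause was not tested.

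Differences in family shares, EDN1 overexpression minus mock in percentage points, also changed sign. In the second set alone they were -0.84 for ACSL1, -2.33 for SLC27A2 and 0.36 for SLC27A5. SLC27A5 was 0.049 in the first set and 0.038 among the listed genes only. Leaving out 1 library gave -1.27 to 1.99 for ACSL3, -0.46 to 0.98 for SLC27A2, -6.03 to 0.74 for SLC27A4 and -0.81 to 0.39 for SLC27A5. ACSL4 was 1.28 and ACSL5 -1.86 in the second set alone, and leaving out 1 library gave 3.84 to 11.0 for ACSL4 and -11.8 to -2.75 for ACSL5, with the value nearest 0 without mock 2 for both.

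Same-numbered libraries of the 2 groups did not all deviate together (correlations over genes 0.48, 0.15, -0.15 and 0.53), so the numbers are not taken as pairs. The replicate block left 1 gene called and CD36 at 0.93. Depth was low for CD36, with 41 to 122 counts per library, and for SLC27A5, with 51 to 101.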
